A study of Mus musculus with 4 samples.

Results

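This account covers the simple cassette exons of the mouse heart that are longer than 50 nt and whose length is not a multiple of 3, so that putting the exon in or leaving it out shifts the reading frame of everything downstream. Of 124326 exons and splice sites listed in the deposited splicing table, 21375 are exons of this kind, and 1650 of them, in 1426 genes, had at least 10 reads in each of the 4 libraries and at least 5 reads of each form over all libraries. The infarcted samples were taken from heart muscle remote from the infarct in 2 C57BL/6 mice whose left anterior descending coronary artery had been tied off permanently. The uninjured samples came from hearts of 2 C57BL/6 mice and carry the same area label. The 2 libraries of a group stand for 2 mice, so a p-value below measures the spread between these mice. All libraries carry the mark of day 7 in their labels. Age, sex and a sham operation are named nowhere in these sources, so ligation and surgery cannot be told apart. Polyadenylated RNA was sequenced as single 50 bp reads. A pair of values given below for a group is always replicate 1 and then replicate 2.

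A cassette exon is spliced into some mRNA copies of a gene and skipped in others. When its length is not a multiple of 3, the codons after it are read in a different frame in the 2 forms, and the wrong frame usually meets a stop codon soon. An mRNA whose stop codon lies well upstream of its last exon junction is commonly degraded by nonsense-mediated decay, in which UPF proteins recognise a ribosome that stopped ahead of an exon junction complex. Many genes for splicing factors carry such exons, often called poison exons, through which the protein limits its own mRNA. In heart muscle, exon choice also sets the isoforms of sarcomere and calcium-handling proteins.

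The sequences below show 2 frequent kinds of these exons and, after them, a pair at the end of the coding sequence. In the first kind the coding transcripts skip the exon, and including it brings a stop. Each line gives the exon's bases from its first base to the first stop codon met in the frame of the upstream exon, with that stop codon in capitals. Sequences are those of GENCODE M21 transcripts, whose exons were matched by strand, exon length and the lengths of both flanking introns, and the coordinates are those of the deposited table, on mm9. They come from the muscle RNA-binding protein gene Rbm24 (113 nt, chr13:46517645-46517757, plus strand), the splicing repressor gene Hnrnpl (70 nt, chr7:29602354-29602423, plus strand), the RNA-binding protein gene Tial1 (68 nt, chr7:135590245-135590312, minus strand), the SR protein gene Srsf9 (358 nt, chr5:115778356-115778713, plus strand) and the Z-disc protein gene Myoz2 (172 nt, chr3:122736110-122736281, minus strand).
Rbm24 exon included: ggctcgtatacagttaagcTAA
Hnrnpl exon included: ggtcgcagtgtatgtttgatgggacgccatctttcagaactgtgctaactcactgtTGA
Tial1 exon included: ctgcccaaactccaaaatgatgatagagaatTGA
Srsf9 exon included: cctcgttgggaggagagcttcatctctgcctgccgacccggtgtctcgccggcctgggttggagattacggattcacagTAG
Myoz2 exon included: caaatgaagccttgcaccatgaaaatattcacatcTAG

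In the second kind the exon is part of the coding sequence, and skipping it moves the next exon out of frame. Of the genes shown, Nrap alone also has an annotated coding transcript that skips the exon. Each line gives the bases that follow the junction formed by skipping, up to the first stop codon in the new frame, again in capitals. They come from the cardiac troponin T gene Tnnt2 (64 nt, chr1:137744286-137744349, plus strand), the peroxisomal transporter gene Abcd3 (70 nt, chr3:121488920-121488989, minus strand), Sec61a1, which encodes the pore of the endoplasmic reticulum translocon (110 nt, chr6:88462490-88462599, minus strand), the mitochondrial succinyl-CoA ligase subunit gene Sucla2 (181 nt, chr14:73960248-73960428, plus strand) and Nrap, a nebulin-related gene of striated muscle (95 nt, chr19:56463880-56463974, minus strand).
Tnnt2 exon skipped: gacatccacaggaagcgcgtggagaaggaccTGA
Abcd3 exon skipped: atctctctggttaataacttctTGA
Sec61a1 exon skipped: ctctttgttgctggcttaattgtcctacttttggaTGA
Sucla2 exon skipped: gatcaaaggatgttgTGA
Nrap exon skipped: ccacaacccTAA

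A few exons lie near the end of the coding sequence, where both frames reach a stop that is not early and the 2 forms differ in their C terminus. For Capzb, the beta subunit of the actin-capping protein CapZ (113 nt, chr4:138844776-138844888, plus strand), and for Ank1, an ankyrin that links membranes to the cytoskeleton (125 nt, chr8:24252068-24252192, plus strand), the lines give the included exon to its stop and the skipped form from its junction to its stop.
Capzb exon included: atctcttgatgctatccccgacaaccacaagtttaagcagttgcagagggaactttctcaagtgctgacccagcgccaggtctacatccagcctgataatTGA
Capzb exon skipped: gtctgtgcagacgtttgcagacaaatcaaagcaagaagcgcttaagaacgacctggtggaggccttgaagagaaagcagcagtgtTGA
Ank1 exon included: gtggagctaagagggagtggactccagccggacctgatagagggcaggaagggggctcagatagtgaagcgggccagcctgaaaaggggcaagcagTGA
Ank1 exon skipped: gatcacacctcaacacccaaacccTGA

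Across the members, 1452 exons (88.0%) were matched to an annotated transcript and 198 were not. Of 1118 exons that lie wholly in coding sequence, the skipped form could be read for 1108, and in 781 of them (70.5%) it met an early stop, meaning a stop at least 50 nt before the last exon junction. Over all 1108 exons, with or without an early stop, the first stop came a median of 38 nt after the junction (quartiles 15 and 86 nt). It left a median of 47.1% of the protein's length. The coding transcripts skipped another 114 exons, and the included form was tagged for decay or non-coding in the annotation. Of the 105 of these that could be read, 101 met an early stop when included. In 99 of the 105 the first stop lay inside the exon itself, a median of 32 nt from its first base. A match is a reading of the annotated transcript and does not show that the mRNA is degraded.

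**Figure D1:**
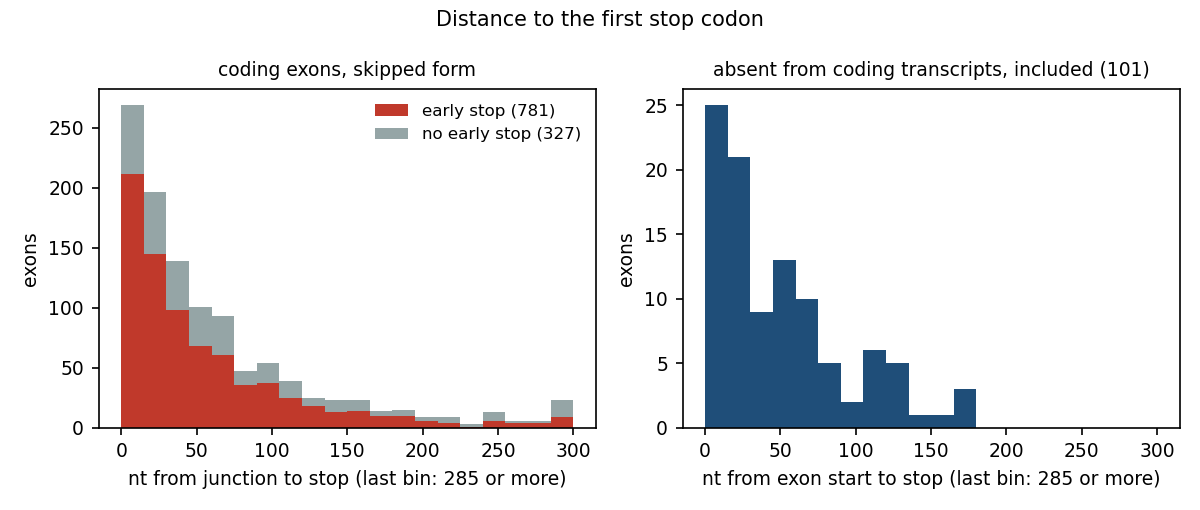
Distance in nt from the skipping junction to the first stop for coding exons (left, 781 with and 327 without an early stop) and from the exon's first base to the stop for exons absent from coding transcripts (right, 101 exons). In both panels the bars are highest near the origin and thin out toward the last bin, which gathers all longer distances.

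The exons were short, with a median length of 115 nt (quartiles 85 and 155 nt, range 52 to 3388 nt), and 838 left a remainder of 1 and 812 a remainder of 2 after division by 3. Introns of wholly coding exons that no coding transcript skips had a median of 1582 nt upstream and 1539 nt downstream. Around the 114 exons absent from coding transcripts the medians were 788.5 and 830 nt. Most genes held 1 member and 195 held 2 or more, with 4 each in Myoz2, Rbpms, Svil and Cdk11b. Exons of 1 gene share its reads and are not independent.

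Gene counts per library were 35715115 to 70885393. Median reads per member were 67 and 58 for infarcted and 63 and 82 for uninjured hearts, and 303 members had fewer than 20 reads in some library. All 9 cardiomyocyte markers were detected, 5 of them lower in the infarcted hearts and 0 higher by edgeR's adjusted test, and they summed to 37914 and 36736 CPM (gene counts scaled to library size) against 46754 and 57699 CPM. Fibroblast markers summed to 8744 and 7663 CPM in the infarcted hearts against 759 and 727 CPM in the uninjured ones, with 5 of 8 genes higher, and 8 of 8 macrophage markers were higher (450 and 497 against 149 and 134 CPM). Atrial markers stood apart in infarcted replicate 2, at 652 CPM against 1.54 to 2.54 CPM in the other libraries. In such bulk samples fewer cells of a type and less RNA per cell cannot be told apart. The part of these cells in the inclusion values and gene levels was not tested.

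Inclusion is the percentage of the deposited reads at the exon that join it in. These reads are corrected values in which skipping reads appear to be given more weight, as described below. Inclusion is therefore not a plain share of the sequenced reads. It was near complete for most members. Of the 1650 exons 1024 (62.1%) had a mean inclusion over 90%, 293 lay between 50% and 90%, 150 between 10% and 50%, and 183 (11.1%) under 10%. The median was 94.1% and 93.2% in the infarcted hearts and 94.1% and 94.4% in the uninjured hearts. Among the 1548 frame-preserving simple cassette exons over 50 nt that passed the same filter, 785 (50.7%) were over 90% and 123 (7.95%) under 10%. These shares describe exons with reads of both forms only. Another 7249 frame-shifting exons had enough reads but fewer than 5 skipping reads, and 1039 had fewer than 5 inclusion reads.

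Inclusion differed with the annotation. The 941 wholly coding exons that no coding transcript skips had a median inclusion of 96.5%, and the 177 found in coding transcripts both ways had 91.2%. The 75 exons of decay-tagged transcripts had a median of 9.01%, and the 39 exons of other non-coding transcripts 7.51%. Exons of 5′ untranslated regions were in between (87 exons, median 62.5%), as were exons with the start or stop codon (105 exons, 92.0%), and the 198 unmatched exons had a median of 13.1%. Among the coding exons, 145 of 781 (18.6%) with an early stop in the skipped form had a mean inclusion of 90% or less, against 80 of 327 (24.5%) without an early stop.

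**Figure D2:**
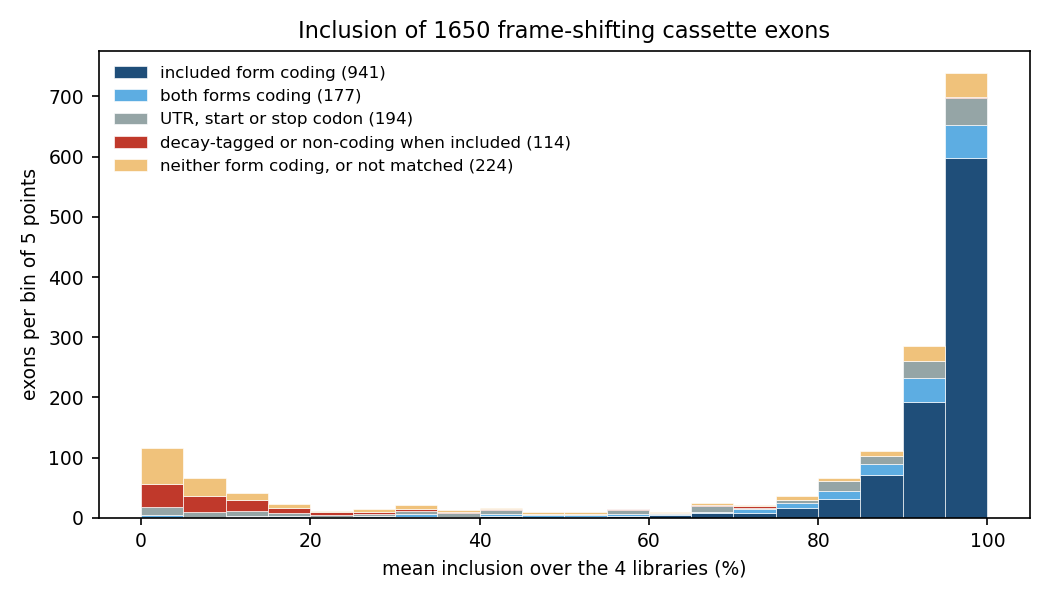
Number of exons (vertical) in bins of 5 points of mean inclusion over the 4 libraries (horizontal, percent), stacked by the annotated coding status of the 2 forms. Coding exons crowd above 90% and the 114 exons that coding transcripts skip crowd below 20%.

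At the edges of the rule, the 25 frame-shifting exons of 52 or 53 nt had a median inclusion of 92.01% and the 28 of 49 or 50 nt, which are left out, 94.9%. The 298 members with 5 to 6 reads of the scarcer form had a median of 97.2%, against 96.6% for 117 exons left out with 4 to 5. The 32 members with 10 reads in their shallowest library had a median of 81.0%, and 40 exons left out with 9 reads 58.9%.

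The most deeply read members belong to heart muscle genes. The 64-nt exon of Tnnt2, the troponin subunit that ties the complex to tropomyosin, had 188463 reads. Its inclusion was 95.8% and 95.7% in the infarcted hearts and 95.6% and 94.7% in the uninjured hearts, and the skipped form keeps 31.1% of the protein. The infarcted pair lies just above the uninjured pair, and the difference did not pass the test (edgeR adjusted p 0.947). Tnnt2 mRNA itself fell by 0.80 ± 0.28 (SE) on the log2 scale (edgeR adjusted p = 0.0428). Tnnt2 is itself among the 5 of 9 cardiomyocyte markers that were lower in the same hearts. In Ckmt2, the mitochondrial creatine kinase of muscle, the 86-nt exon stood at 99.8% and 99.5% against 99.9% and 99.9%, and the 172-nt exon at 99.9% in all 4 libraries, with Ckmt2 mRNA down by 0.95 ± 0.25 (adjusted p = 0.0119). The 175-nt exon of Fhl2, a LIM-domain protein of the sarcomere, was at 100% in each library to 3 digits.

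At the low end, phospholamban (Pln), the inhibitor of the sarcoplasmic calcium pump, has a 127-nt exon in its 5′ untranslated region. Its inclusion was 1.64% and 2.64% in the infarcted hearts and 1.33% and 1.54% in the uninjured hearts, from 48660 reads. Pln mRNA fell by 1.15 ± 0.26 on the log2 scale (adjusted p = 0.00448). The 55-nt exon of Atp5j, an ATP synthase subunit, was at 7.70% and 7.59% against 8.61% and 6.49%, groups that overlap. The decay-tagged 172-nt exon of Myoz2 was at 2.63% and 2.23% against 2.32% and 2.47%, also overlapping, and its other 3 member exons were all above 97% in every library. Exons of 5′ untranslated regions with many reads overlapped as well, in Kif1c (106 nt) at 58.9% and 63.9% against 59.4% and 67.9%, in Josd2 (58 nt) at 12.4% and 9.82% against 13.1% and 7.10%, and in Coro6 (68 nt) at 11.7% and 8.75% against 12.6% and 10%. In Lgals1, a secreted galectin, the decay-tagged 103-nt exon stayed between 0.05% and 0.15% in the 4 libraries.

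Infarcted and uninjured hearts were compared by edgeR's quasi-likelihood test on inclusion and exclusion reads, with a term for each library, fitted and adjusted over all 7785 events that passed the read filter. No member passed an adjusted p of 0.05 in either direction (0 of 1650, and 0% of all events, smallest adjusted p 0.731). At an unadjusted p below 0.05 there were 49 exons higher and 95 lower in the infarcted hearts, 144 in all or 8.73% of members, beside 6.69% of all events (2.48% higher and 4.21% lower). Without uninjured replicate 2 these counts were 16 and 41, and without uninjured replicate 1 they were 23 and 73. They were 39 and 91 without infarcted replicate 1, and 43 and 64 without infarcted replicate 2. DESeq2 and limma also called none, with 36 higher and 65 lower, and 63 higher and 90 lower, at that unadjusted threshold. The infarcted pair lay wholly above the uninjured pair for 259 members (15.7%, against 17.7% of all events) and wholly below it for 365 (22.1%, against 20.9%). With a difference of at least 10 points as well, 60 were higher and 84 lower, where all events gave 5.31% and 6.82%, so the members' 8.73% in both directions was under the 12.1% of all events. The median difference over the members was -0.36 points, and -0.10 over all events.

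**Figure D3:**
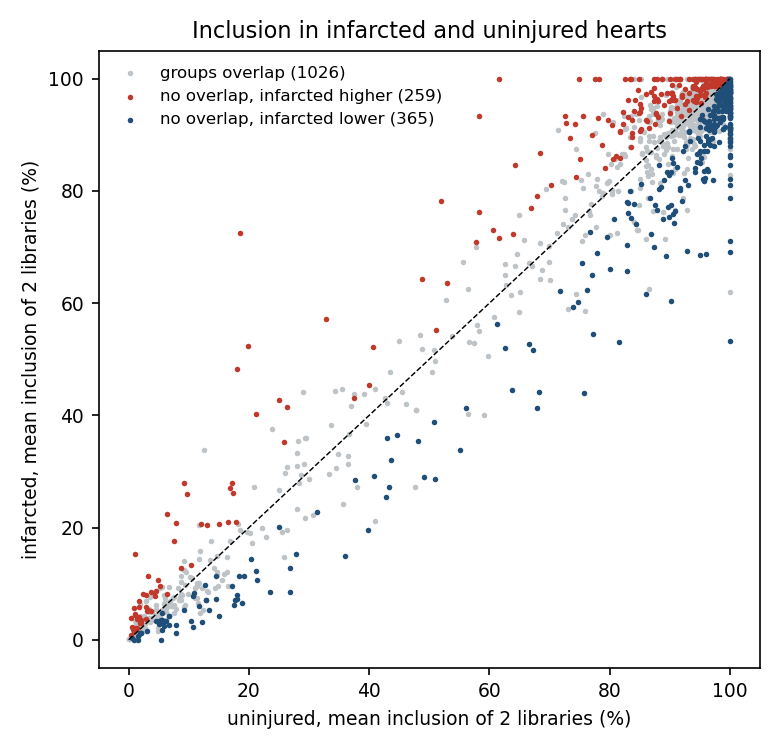
Mean inclusion (percent) of each of the 1650 exons in the 2 infarcted hearts (vertical) against the 2 uninjured hearts (horizontal), with exons whose groups do not overlap in colour (259 higher, 365 lower). Most points lie close to the dashed line of equality.

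Over all members, the libraries differed about as much within a group as between groups. The median absolute difference in inclusion was 3.20 points between the infarcted libraries and 2.62 points between the uninjured ones, against 2.94 to 3.48 points for the 4 pairs across groups. For the 443 exons at 10% to 90% it was 7.67 and 6.13 points within groups and 8.44 to 8.96 points across. For these exons each pair across groups thus differed more than either pair within a group. By class, the 941 wholly coding exons that no coding transcript skips had 153 higher and 190 lower without overlap (16.3% and 20.2%). The 114 exons absent from coding transcripts had 23 and 23 (20.2% each way). Exons with a start or stop codon had 13 higher and 32 lower of 105 (12.4% and 30.5%). Those of 5′ untranslated regions had 8 and 20 of 87 (9.20% and 23.0%). All events gave 17.7% and 20.9%. Uninjured hearts showed no skipping at all in either library for 66 members that were skipped in both infarcted hearts, or 4% of members, beside 2.03% of all events. The reverse held for 51 members, 3.09%, beside 1.84% of all events. Members also had a higher median inclusion than all events, 94.0% against 86.9%.

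The deposited reads are corrected values, and how they were corrected is not named in these sources. In exon events the values look as if an exclusion read had been given nearly the weight of 2. Undoing such a weight, which is inferred from the values, gave whole exclusion reads, within 0.05, for 83.5% of the 5385 member values with both forms, and within 0.2 for 93.3%. The skipping reads and exact intervals given for single exons rest on this inference. On that scale the median member had 8 skipping reads over the 4 libraries, and 285 members had 3 or fewer. The same edgeR test on these recovered junction reads, an analysis added after the data were seen, called 1 member higher and 4 lower, where all events gave 0.206% and 0.321% (0.527% in both directions). DESeq2 on the recovered reads called 0 members at an adjusted p of 0.05 (19 higher and 37 lower at an unadjusted p below 0.05). Without uninjured replicate 1, and without uninjured replicate 2, edgeR on the recovered reads also called 0. Without infarcted replicate 1, and without infarcted replicate 2, it called members in both directions, with 1 infarcted heart left in each fit. The 5 exons are in Ank1, Hnrnpa2b1, Capzb, Rab28 and 4631405J19Rik, and they are described first below as the members with the strongest evidence in any analysis, not as calls of the main test.

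Hnrnpa2b1 encodes an abundant hnRNP protein that binds pre-mRNA and mRNA, and its 73-nt exon (chr6:51411982-51412054, minus strand) matched no annotated transcript by its 3 lengths. Inclusion was 67.2% and 53.6% in the infarcted hearts and 92.2% and 88.1% in the uninjured hearts, with 22, 35, 9 and 21 skipping reads. The groups do not overlap, and the difference of the means, 60.4 ± 9.56% against 90.2 ± 2.91% (SD, 2 hearts each), is larger than the spread within either. Exons named here and below for a small p were picked among those whose groups do not overlap, so their separation is no separate evidence. The exact 95% intervals, which cover counting error only, ran from 43.5% to 77.4% over the infarcted libraries and from 82.6% to 96.3% over the uninjured ones. On the log2 odds scale the exon was lower by an estimate of -2.58 ± 0.52 (SE), with an edgeR adjusted p of 0.731 on the corrected reads and 0.000391 on the recovered reads. Hnrnpa2b1 mRNA did not pass its test (log2 difference -0.36, adjusted p = 0.205).

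CapZ caps the fast-growing ends of actin filaments and holds them at the Z-disc. The included 113-nt exon of Capzb encodes the C terminus of the beta isoform known from sarcomeric Z-discs, and the skipped form that of the isoform that predominates in non-muscle cells, as the 2 sequences above show. Inclusion was 71.9% and 68.2% in the infarcted hearts and 86.4% and 88.4% in the uninjured hearts, from 922 to 1855 reads per library. The 4 exact intervals of the infarcted and uninjured hearts do not overlap (64.5% to 75% against 83.7% to 90.3%). The difference in log2 odds was -1.57 ± 0.36, with an edgeR adjusted p of 0.731 on corrected and 0.00345 on recovered reads, and the Capzb gene level differed by -0.17 (adjusted p = 0.553). Fibroblast and macrophage markers were higher in the same 2 libraries, at 7663 to 8744 CPM and 450 to 497 CPM, and their part in this value was not tested.

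Ank1 makes a small muscle ankyrin of the sarcoplasmic reticulum from its 3′ end, where its 125-nt exon lies. Inclusion of the exon was 95.3% and 90.8% in the infarcted hearts and 98.4% and 99.4% in the uninjured hearts. There were 28, 44, 15 and 9 skipping reads and 912 to 2909 reads per library. The infarcted values are below both uninjured values and also differ from each other by more than 4 points. The log2 odds differed by -2.77 ± 0.61, with an adjusted p of 0.731 on corrected and 7.79e-05 on recovered reads (edgeR). Ank1 mRNA fell by 0.82 ± 0.21 on the log2 scale (adjusted p = 0.0103). The 95-nt exon of Rab28, a small GTPase (chr5:42018226-42018320, minus strand), stood at 78.8% and 71.9% against 87.2% and 92.5%, and had an adjusted p of 0.0396 on recovered reads. Its host gene fell by 0.56 on the log2 scale (adjusted p = 0.0285). Skipping either exon changes the C terminus and gives no early stop.

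The 1 exon on the higher side was the 80-nt exon of 4631405J19Rik, a locus with no coding form (chr2:92871033-92871112, plus strand). Inclusion was 55.6% and 89.4% in the infarcted hearts and 20% and 17.1% in the uninjured hearts, from 18 to 41 reads per library. The groups do not overlap, but the infarcted hearts differ from each other by over 30 points. The adjusted p was 0.731 on corrected and 0.0160 on recovered reads.

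The other exons with the smallest p on the higher side mostly rest on few skipping reads. Abcd3, which carries long-chain acyl-CoA into peroxisomes, is an exception. Inclusion of its 70-nt exon was 47.7% and 57.0% in the infarcted hearts and 21.3% and 18.4% in the uninjured hearts, with 17, 7, 30 and 25 skipping reads. The difference in log2 odds was 1.95 ± 0.59 (edgeR adjusted p 0.731, and 0.105 on recovered reads), and skipping leaves 18.1% of the protein before the early stop. Abcd3 mRNA fell by 0.64 ± 0.19 on the log2 scale (adjusted p = 0.0190).

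Sec61a1 had 2 neighbouring members, of 110 and 154 nt (chr6:88462096-88462249 for the second). The first was at 100% in both infarcted hearts and at 90.3% and 84.7% in the uninjured hearts, and the second at 100% against 95.3% and 94.2%. Only 3 skipping reads stand behind each, all in the uninjured libraries, whose coverage was also lower (22 and 27 reads against 59 and 63 for the 110-nt exon). Sec61a1 mRNA rose by 1.07 ± 0.19 (adjusted p = 0.00123). Adam19, a membrane metalloprotease, had a 193-nt exon at 100% in both infarcted hearts and 75% in both uninjured hearts. Each of the latter had 14 reads, 2 of them skipping reads on the recovered scale. The exact interval of an uninjured value ran from 40.0% to 96.5%, which overlaps the 78.0% to 100% of an infarcted one. Adam19 mRNA rose by 0.72 ± 0.19 (adjusted p = 0.00978). The exons of Agtpbp1 (125 nt), Zfp106 (61 nt), Polb (140 nt) and Atp9b (95 nt) share this form, at 100% in both infarcted hearts and at 53.8% to 97.5% in the uninjured ones.

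Ccng1, a cyclin induced by p53, differed on far more reads. Inclusion of its 79-nt exon was 98.7% and 99.2% in the infarcted hearts and 97.1% and 97.3% in the uninjured hearts, from 1203 to 2144 reads per library. The groups do not overlap and differ by 1.78 points, against SDs of 0.311 and 0.148, but the adjusted p was 0.731 on corrected and 0.310 on recovered reads.

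On the lower side, 7 of the 10 exons with the smallest p, all but those of Hnrnpa2b1, Ank1 and Capzb, were at 100% in both uninjured hearts. Rgl3, an exchange factor for Ral GTPases, showed the largest drop of any member, with its 230-nt exon (chr9:21792490-21792719, minus strand) at 63.7% and 42.9% against 100% and 100%. It had 10 to 23 reads per library and 4 skipping reads in each infarcted heart. The exact intervals, 15.1% to 88.0% in the infarcted and 71.2% to 100% in the uninjured libraries, overlap. The 124-nt exon of Ifnar2, a subunit of the type I interferon receptor, was at 95.2% and 94.3% on 161 and 137 reads. The 181-nt exon of Sucla2 stood at 99.6% and 99.4% on 988 and 713 reads, 2 of which skipped it in each heart, and Sucla2 mRNA fell by 1.05 ± 0.22 (adjusted p = 0.00282). Atg9a, Aig1, Ercc1 and Arl16 had values of 78.6% to 97.3% in the infarcted hearts against 100%. For these exons the uninjured groups have no spread, and 1 to 5 skipping reads stand behind each infarcted value.

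**Figure D4:**
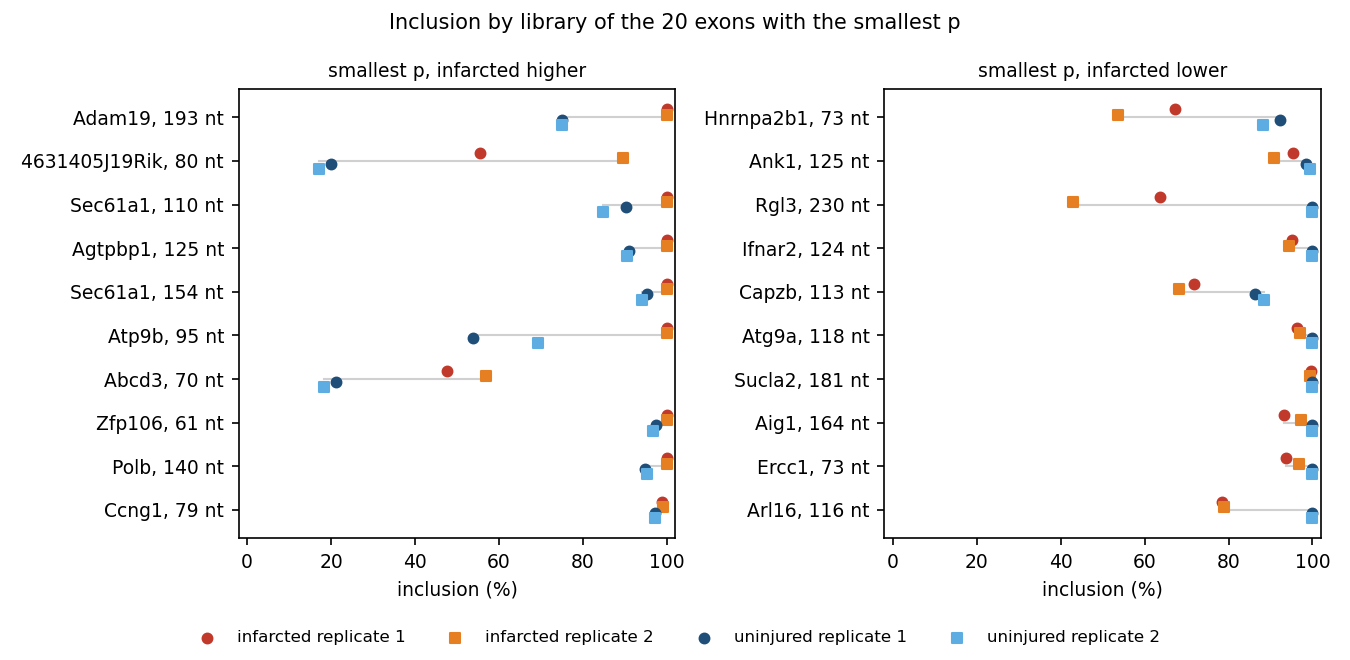
Inclusion (percent, horizontal) by library of the 20 exons with the smallest unadjusted p and no overlap, 10 higher (left) and 10 lower (right) in infarcted hearts, in order of p. Grey lines join the lowest and highest library, and many exons sit at 100% in both hearts of 1 group.

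Exons with larger counts and a shift of at least 10 points were picked after the values were seen, from members with 400 or more reads in all. Of 624 such members, 2 were higher and 11 lower by that much without overlap, 2.08% in both directions. All events, with no such limit on reads, gave 12.1%. The lower ones include the 200-nt exon of H13, the signal peptide peptidase, at 22.7% and 28.1% against 40.9% and 44.7%, and the 95-nt exon of Nrap, at 85.6% and 78.3% against 95.4% and 89.6%. The 107-nt exon of the histone acetyltransferase gene Myst2 was at 78.0% and 72.2% against 86.2% and 91.6%, and the 178-nt exon of Mavs, the mitochondrial antiviral adaptor, at 60.8% and 69.3% against 78.9% and 75.5%. The higher ones were the 176-nt exon of the lysosomal membrane protein gene Lamp2, at 76.7% and 69.4% against 67.3% and 54.0%, and the 139-nt exon of Ubac1, at 82.5% and 79.8% against 70.6% and 70.0%. None of these 6 passed an adjusted p of 0.05 in either analysis.

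The genes of splicing factors and other RNA-binding proteins, a list of 142, held 68 members in 53 genes, with a median inclusion of 52.2%. Of these exons, 13 were higher and 15 lower without overlap, 19.1% and 22.1%, beside 17.7% and 20.9% of all events. The list held 14 exons that coding transcripts skip, and 12 of them had an inclusion below 45% in every library. The 113-nt exon of Rbm24, a factor that holds muscle exons in, was at 10.4% and 8.98% in the infarcted hearts and 13.3% and 12% in the uninjured hearts. The 70-nt exon of Hnrnpl was at 4.64% and 5.84% against 8.17% and 10.3%, and the 358-nt exon of Srsf9 at 9.37% and 9.79% against 17.6% and 16.7%. In all 3 the infarcted pair lies below the uninjured pair, and none passed the test, with unadjusted p of 0.395, 0.127 and 0.205.

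A further 3 of the 14 also separated the hearts, 1 lower and 2 higher, with no call. Among all events, 38.6% separated the hearts in this way. The 59-nt exon of Tial1 was at 4.92% and 4.64% in the infarcted hearts and 5.33% and 5.63% in the uninjured hearts. The 71-nt exon of Luc7l was at 75% and 83.3% against 69.2% and 66.7%, from 10 to 22 reads and 2 to 4 skipping reads per library. The 53-nt exon of Prpf38b was at 4.97% and 17.9% against 3.27% and 3.06%. In the uninjured libraries 14 of its 15 and 15 of its 16 reads were skipping reads. The other 8 exons overlapped between the groups. In Rbm39, a U2AF-like splicing factor, the 73-nt exon was at 14.9% and 19.8% against 16.3% and 24.6%, and the 55-nt exon was under 2% throughout. The 68-nt exon of Tial1 was at 32.6% and 21.9% against 24.5% and 17.1%. The 80-nt exon of Son, a large nuclear speckle protein, was at 29.6% and 31.5% against 40.0% and 29.1%. The 56-nt exon of Sf3b1, a core part of the U2 particle, lay at 2.34% to 6.87%, and the 71-nt exon of Hnrnpd at 1.56% to 2.71%. The 131-nt exon of Scaf1 was at 77.4% and 68.7% against 93.3% and 76.2%. The exons of Luc7l and Scaf1 were mostly included, although the annotation gives no coding form with them.

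**Figure D5:**
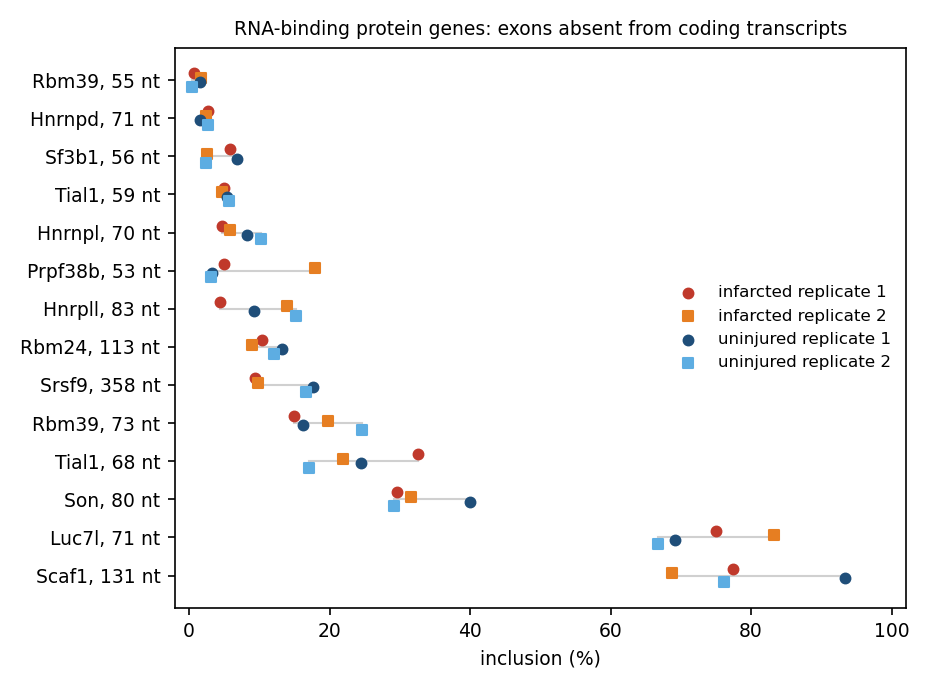
Inclusion (percent, horizontal) by library of the 14 exons of RNA-binding protein genes that coding transcripts skip, ordered by their mean. Rbm24, Hnrnpl, Srsf9 and the 59-nt exon of Tial1 have both infarcted values below both uninjured ones, Luc7l and Prpf38b have both above, and the other 8 overlap.

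A second exon of Srsf9, of 79 nt (chr5:115781470-115781548, plus strand), is spliced both ways in coding transcripts. Placed in the coding transcript that skips it, the exon brings an early stop downstream of itself, which leaves 79.7% of the protein's length. Its inclusion was 5.51% and 11.5% in the infarcted hearts and 26.9% and 26.7% in the uninjured hearts, from 34 to 67 reads. The difference was -2.02 ± 0.69 in log2 odds, with an adjusted p of 0.731 on corrected and 0.0761 on recovered reads, and the Srsf9 gene level differed by 0.25 (adjusted p = 0.420). In the unmatched 107-nt exon of Srsf7, another SR protein gene, the values were 6.49% and 5.89% against 16.1% and 18.9%. The unmatched 53-nt exon of Rbfox1, a muscle and neuron splicing factor, was at 44.2% and 46.6% against 40.9% and 39.1%, while Rbfox1 mRNA fell by 1.52 on the log2 scale (adjusted p = 0.000497). Among the Clk kinases, which phosphorylate SR proteins, the 91-nt exon was at 54.8% and 80.0% against 89.7% and 50.0% in Clk1 and at 33.3% and 46.8% against 73.1% and 45.2% in Clk4, pairs that overlap. The 85-nt exon of Clk2 was at 87.0% and 91.3% against 95.9% and 96.8%, and skipping it gives an early stop.

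Depth varied widely within this list. The 74-nt exon of Rbm5, a splicing regulator, was at 100% and 86.9% against 71.7% and 44.9%, from 12 to 34 reads per library and 8 skipping reads in all. The 92-nt exon of Fxr1, an RNA-binding protein of muscle, had 1710 reads and stood at 86.1% and 80.6% against 89.5% and 91.1%. Both of its forms read on to a late stop, so that skipping replaces the C terminus and keeps 86.8% of the length. The 119-nt exon of Prpf3, a part of the U4/U6 particle, was at 100% and 100% against 97.0% and 94.8%, and the 104-nt exon of Rbpms, an RNA-binding protein of muscle, at 10.3% and 14.4% against 17.0% and 25.3%. None of these passed the test.

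Muscle genes gave 22 members in a list of 77 genes, with a median inclusion of 97.6%. Of these, 2 were higher and 5 lower without overlap (9.09% and 22.7%, beside 17.7% and 20.9% of all events). The largest shift was the unmatched 305-nt exon of Pdlim7, a Z-disc LIM protein (chr13:55608180-55608484, minus strand), at 33.8% and 49% against 63.1% and 72.7%, with 56, 32, 16 and 16 skipping reads. Its adjusted p was 0.731 on corrected and 0.0843 on recovered reads, and Pdlim7 mRNA rose by 0.89 ± 0.19 (adjusted p = 0.00392). The other exons named in this list differed by less than 3 points. The 55-nt exon of Camk2g, a calcium-dependent kinase, was at 96.7% and 96.8% against 100% and 98.5%, and the 94-nt exon of Mylk3, the cardiac myosin light chain kinase, at 100% and 99.7% against 99.5% and 99.5%. In Svil, which ties actin to membranes, the 208-nt exon was at 98.3% and 96.9% against 98.5% and 99.0%.

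Mitochondrial and metabolic genes gave 30 members with a median inclusion of 97.7%. Of these, 1 was higher and 4 lower without overlap (3.33% and 13.3%, beside the same 17.7% and 20.9%), and none moved by 10 points. The 197-nt exon of Mfn1, which fuses outer mitochondrial membranes, was at 98.7% and 96.9% against 99.4% and 99.6%, the 88-nt exon of the cristae protein gene Chchd3 at 99.6% and 97.9% against 100% and 100%, and the 89-nt exon of Coq5, an enzyme of coenzyme Q synthesis, at 97.6% and 98.2% against 100% and 99.4%. Skipping gives an early stop in all 3. The host genes fell by 0.67, 0.78 and 0.67 on the log2 scale (adjusted p = 0.0237, 0.0127 and 0.0197).

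Adhesion, matrix and cytoskeleton genes gave 16 members, 4 higher and 6 lower without overlap, 25% and 37.5% against 17.7% and 20.9% of all events. The 467-nt exon of fibronectin (Fn1) was at 99.5% and 99.6% against 100% and 91.0%, and its direction turned when uninjured replicate 2 was left out. Fn1 mRNA rose by 4.79 on the log2 scale (adjusted p = 1.48e-05). The 202-nt exon of Arhgef7, an exchange factor at focal adhesions, was at 98.1% and 97.1% against 100% and 100%, and the 218-nt exon of the spectrin gene Spna2 at 94.95% and 90.7% against 97.9% and 100%. The 2806-nt exon of the kinesin gene Kif1b, the longest named here, was at 89.6% and 94.7% against 81.4% and 64.3%.

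Signalling genes gave 22 members, 3 higher and 8 lower without overlap, 13.6% and 36.4% where all events had 17.7% and 20.9%. The 173-nt exon of Ppp1r12a, a subunit of myosin phosphatase, was at 3.67% and 3.16% against 10.3% and 10.3%, and the host gene rose by 0.92 ± 0.27 (adjusted p = 0.0236). The 61-nt exon of Pde4dip, a scaffold of cyclic AMP signalling, was at 91.7% and 82.7% against 95.6% and 94.4%, and the 106-nt exon of the kinase gene Mknk1, in the 5′ untranslated region, at 50.0% and 38.4% against 69.2% and 67.4%. Nfatc3, a calcineurin target, had a 56-nt exon at 100% and 100% against 84.0% and 85.7%, on 13 to 29 reads. Chromatin and transcription genes gave 24 members, 2 higher and 3 lower without overlap, 8.33% and 12.5% beside those shares. The 146-nt exon of Taf9 was at 97.7% and 95.4% against 100% and 100%, with 1 and 2 skipping reads in the infarcted hearts. The 122-nt exon of Creb1 was at 85.4% and 86.7% against 100% and 100%, with 3 and 2 skipping reads and 15 to 38 reads per library. The decay-tagged 85-nt exon of Max, the partner of MYC proteins, was at 17.7% and 12.8% against 31.4% and 24.1%, from 19 to 33 reads. The decay-tagged 233-nt exon of Elf2 was at 3.04% and 8.15% against 0% and 1.89%. In these 6 lists the exon of Hnrnpa2b1 alone passed an adjusted p of 0.05, and only on recovered reads.

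The genes that hold the exons were also compared by their counts. Of 1411 tested host genes 141 rose (9.99%) and 324 fell (23.0%) at an edgeR adjusted p below 0.05, beside 18.3% and 14.6% of all 13905 genes tested. The median log2 difference was -0.16 over the host genes and 0.02 over all genes. Without uninjured replicate 2, which leaves 1 uninjured heart, few host genes passed in either direction, and few of all genes did. Without infarcted replicate 1 or 2, fewer passed in both directions than with all libraries, among the hosts and among all genes. Hosts of decay-tagged exons gave 3 higher and 8 lower of 72, a median of 0.00. Hosts of wholly coding exons that no coding transcript skips gave 78 and 207 of 853, a median of -0.19.

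The machinery that acts on such exons was given by 3 lists. Of 32 genes of nonsense-mediated decay and the exon junction complex, all tested, 0 passed (5 at an unadjusted p below 0.05), with a median of -0.02 on the log2 scale. The junction complex genes Rbm8a and Magoh stood at 5.68 and 5.46 against 7.58 and 8.65 CPM and at 12.1 and 11.9 against 15.2 and 18.3 CPM (adjusted p 0.0813 and 0.0817), and the decay kinase gene Smg1 at 49.3 and 61.6 against 46.3 and 33.3 CPM (0.0991). Of 19 SR protein and SR kinase genes tested, Tra2b rose, from 34.7 and 32.3 to 53.7 and 48.4 CPM (adjusted p = 0.0215), and the muscle SR kinase gene Srpk3 fell, from 21.9 and 27.3 to 15.9 and 16.1 CPM (adjusted p = 0.0297). Of 27 regulators of muscle exons tested, 2 rose and 3 fell. Beside the counts of these 3 lists, 18.3% of all 13905 genes tested were higher and 14.6% lower. The splicing repressors Ptbp1 and Ptbp3 rose by 1.19 and 0.93 on the log2 scale, and Rbfox1, Rbm38 and Khdrbs3 fell by 1.52, 1.03 and 0.79. In the same libraries 5 of 9 cardiomyocyte markers were lower and fibroblast and macrophage markers were higher, and their part in these levels was not tested.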

How the data were processed

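Polyadenylated RNA of 4 hearts, 2 infarcted and 2 uninjured, was measured. The authors deposited raw counts per Ensembl gene and, for each splicing event, the percent inclusion with corrected inclusion and exclusion reads in each library. The genome build is mm9 per the submitters' processing notes, and no aligner, counter or event tool is named in these sources. Percent inclusion matched the reads within 0.05 points in 99.98% of values with at least 10 reads. Members were selected on the deposited reads before rounding, and splice-site events kept 1 site each, since sites share reads. Reads were rounded and tested in edgeR 4.0.16 (R 4.3.3) as a form-by-group interaction with library terms over 7785 events, and gene counts with TMM and filterByExpr over 13905 genes, both with Benjamini-Hochberg adjustment. The fits of inclusion and of gene counts were tried on simulated data, and the exon matching and stop reading were not. Alternatives used limma 3.58.1, with 0.5 reads added to each form on the logit scale, and DESeq2 1.42.0. Standard errors are the log2 difference divided by the root of the F statistic. Exact Clopper-Pearson intervals at 95% were set on recovered junction reads, whose weighting is inferred from the values, and cover counting error only, as PCR copies cannot be told apart. Exons were matched to GENCODE M21 (GRCm38) by lengths, with no conversion of coordinates. With 2 mice a group an exact permutation p cannot go below 0.333. The strand of the libraries is not given, so antisense genes and near-identical copies leave some values uncertain.

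Exons were named by a rule: the 10 with the smallest edgeR p in each direction whose groups do not overlap, up to 4 in each gene list, and the 4 with the most reads in each of 4 inclusion classes. Exons of RNA-binding protein genes and those with 400 or more reads and a shift of 10 points were described after their values were seen. The members, lists and rule were chosen with earlier results of these data known.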

Additional observations from a re-analysis of the deposited data

How the results depend on the processing

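No member was called by edgeR, limma or DESeq2 on the corrected reads, nor with other rounding, filters, thinned reads or weights, with 1 exception. With only 1 read of each form required, 3944 exons entered and 1 was called lower, the Ank1 exon (edgeR adjusted p 0.0255). Of all 16805 events in that fit, 4 were called. The added analysis of recovered junction reads called 1 higher and 4 lower with edgeR. With the replicate number as a block as well it called 2 and 5, where 43 of all 7785 events were called. Leaving out 1 library each, it called 0 to 4 higher and 0 to 9 lower, with 0 in both directions whenever an uninjured library was left out, which leaves 1 uninjured heart and assumes that it varies like the infarcted ones. On the corrected reads, every fit without 1 library called 0. The replicate numbers did not pair the samples: deviations of same-numbered libraries correlated at -0.007 for inclusion and 0.085 for gene levels, and the block gave 0 exons called on corrected reads (82 lower and 42 higher with p under 0.05 before adjustment), and 157 and 363 host genes. Host gene counts without 1 library ranged from 7 to 122 higher and from 2 to 338 lower, and other scaling, filters or DESeq2 gave 136 to 143 and 341 to 355. The median difference over the exons ranged from -0.45 to -0.12 points. Of 252 values of 42 single exons under other settings, 251 kept their direction, and the Fn1 exon alone turned, with a log2 odds difference between -0.38 and 4.38 over the fits without 1 library (the lowest without uninjured replicate 2). On the recovered scale, which is inferred from the values, 285 members had 3 or fewer skipping reads, and 303 members had fewer than 20 reads in some library.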
